A study of Homo sapiens with 12 samples.

Results

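XL413, an inhibitor of the kinase CDC7, was given to A375 cells together with GSK343, an inhibitor of the histone methyltransferase EZH2, and the cells were compared with cells given GSK343 alone. The comparison took 6 of the 12 libraries of the series, chosen by their labels: 3 libraries of the combination and 3 of GSK343. A375 is an established human melanoma line that carries a mutant BRAF kinase. All 6 cultures received 1 µM GSK343 for 24 h, and the 3 combination cultures also received 1 µM XL413 for the same 24 h. The other 6 libraries, 3 with the solvent DMSO and 3 with 1 µM XL413 alone, entered the same model and served to set the effect of XL413 without GSK343 beside it. The labels call the libraries of a group biological replicates and do not say what separates them, so p-values measure the spread between these libraries.

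CDC7 works with its regulatory partner DBF4. The pair phosphorylates the MCM helicase that has been loaded on replication origins, and so starts DNA synthesis. Once DNA is copied, cells raise the transcripts of mitosis, among them CDK1 and its B-type cyclins, the kinetochore and spindle genes and the cofactors of the anaphase-promoting complex, the ubiquitin ligase that ends mitosis. EZH2 is the catalytic subunit of a Polycomb repressive complex, which keeps developmental genes silent through histone methylation. The counts measure mRNA, not the activity of either enzyme.

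Total expected counts were 32979558, 34389768 and 36131973 in the GSK343 libraries and 32153099, 39079931 and 34732148 in the combination libraries, in the order of the replicate numbers. Between 18331 and 18488 genes had a count in each, and 15443 genes were tested. Replicate 2 of the combination stood apart. Over 12196 genes, its log2 levels scattered around the mean of the other 2 libraries of its group with an SD of 0.277. The same SD was 0.140 to 0.183 for each of the other 11 libraries. The melanoma lineage gene SOX10 was at 314, 329 and 296 CPM (counts scaled to a common library size) with GSK343 and at 327, 301 and 313 CPM with the combination, and VIM, the mesenchymal filament vimentin, was above 2560 CPM in all 6. TYR, the pigment enzyme tyrosinase, had 0 counts and MLANA, a melanosome gene, 2 to 5 counts, so these 2 pigment markers were absent or nearly so. That does not hold for the whole lineage: 10 of 12 listed melanoma markers and 23 of 30 listed melanocyte differentiation genes were high enough to be tested. Of the epithelial, fibroblast and leukocyte marker lists, 0 of 9, 0 of 11 and 0 of 6 tested members were called by edgeR with or without replicate 2 (7 and 2 at an unadjusted p under 0.05, 0 by DESeq2). Over all 15443 tested genes edgeR called 0.984%, so 0 calls among so few genes says little. Their summed levels were 610 to 632 against 627 to 698 CPM, 163 to 247 against 227 to 242 CPM, and 54.1 to 56.2 against 56.6 to 60.3 CPM. The part of these marker levels in the results below was not tested.

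The way in which replicate 2 deviated followed transcript length, taken as the longest basic GENCODE transcript of each gene. Against the mean of the GSK343 libraries, its median log2 difference ran from 0.21 in the shortest of 5 equal bins of the tested genes to −0.27 in the longest bin. In replicates 1 and 3 of the combination the same medians ran from 0.05 to −0.04 and from 0.03 to −0.02. GSK343 replicate 3 leaned the other way, from −0.07 in the shortest bin to 0.06 in the longest. Across 14968 genes, which are not independent replicates, the log2 fold change of the comparison fell with length, with a Spearman rho of −0.40 with all libraries and −0.151 across 14966 genes without replicate 2 of the combination. For XL413 against DMSO, in libraries with no part in this deviation, rho was −0.20. Counts of calls on GSK343 below are therefore given with and without replicate 2, as are most calls and log2 fold changes of single genes.

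**Figure D1:**
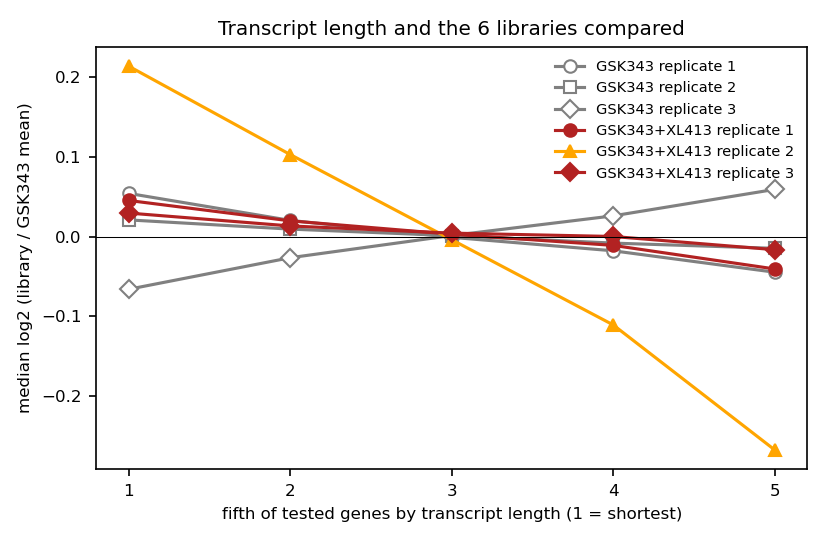
Median log2 difference of each of the 6 libraries from the mean of the 3 GSK343 libraries (vertical axis) in 5 equal bins of the tested genes by transcript length (horizontal axis, 1 is the shortest). Replicate 2 of the combination falls from 0.21 to −0.27, while the other 5 libraries stay between −0.07 and 0.06.

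Adding XL413 to GSK343 changed 152 of the 15443 tested genes (0.984%) by edgeR at an adjusted p under 0.05, 100 higher (0.648%) and 52 lower (0.337%), and 3152 genes had an unadjusted p under 0.05 (20.4%). The changes were small. The median fold was 1.23 for the genes called higher and 1.28 for those called lower, 17 genes passed 1.5-fold, and CA9, which encodes carbonic anhydrase 9, was the 1 gene past 2-fold. Without replicate 2 of the combination 243 genes were called (1.56%), 140 higher (0.898%) and 103 lower (0.661%). Both fits called the same 89 genes higher and the same 45 lower, and all 152 genes kept their sign without replicate 2. All 3 combination libraries lay above all 3 GSK343 libraries for 10.5% of the tested genes and below them for 10.8%, which is the background for statements on overlap below. The shares of 0.984% called and 20.4% at an unadjusted p under 0.05 are the background for the list counts. With so few calls among all genes, 0 calls in a short list is the common outcome. The genes named for the size of their change, among them HMMR, UBE2C, UBE2S, the long transcripts and CA9, had to have groups that do not overlap, so their separation follows from that choice. The count of calls depended on which libraries entered the fit: a fit of the 6 libraries alone called 0 genes by edgeR (1809 at an unadjusted p under 0.05), and 51 without replicate 2, while DESeq2 on all 12 libraries called 582. Leaving out GSK343 replicate 3 or 2 left 35 and 38 calls, leaving out replicate 1, 2 or 3 of the combination gave 62, 243 and 348, and leaving out any single DMSO or XL413 library gave 61 to 73.

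**Figure D2:**
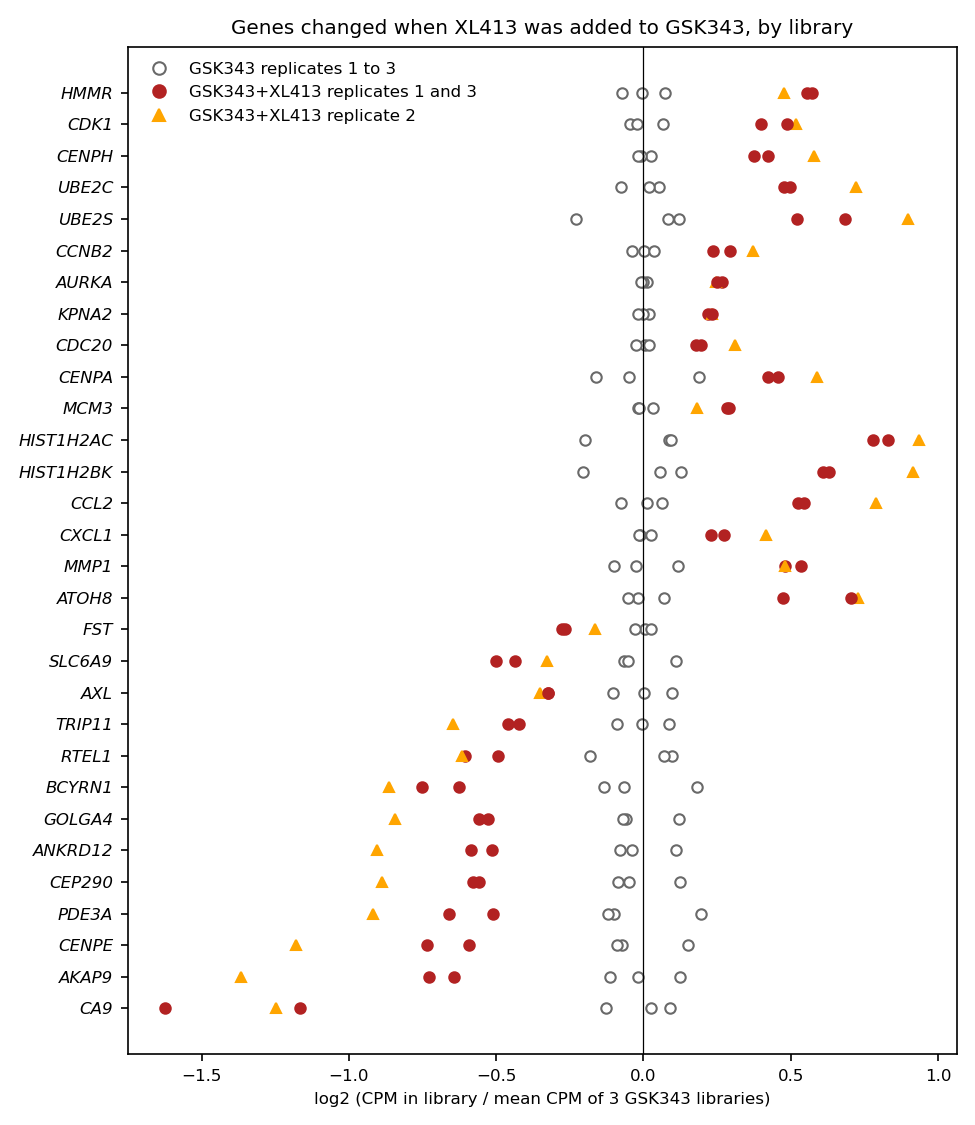
Level of 30 called genes in each of the 6 libraries, as the log2 ratio of its CPM to the mean CPM of the 3 GSK343 libraries (horizontal axis). Open circles are GSK343 libraries, filled circles replicates 1 and 3 of the combination and triangles replicate 2, and the genes run from HIST1H2AC at the right to AKAP9 and CA9 at the left. Many of the 30 genes were chosen with non-overlapping groups as a condition, so their separation is no result; the spread of the 3 libraries within a group is what the plot adds.

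Mitotic transcripts were among the genes called higher, counted here over 4 lists that were chosen with earlier results of these data known. Over all tested genes 0.648% were called higher and 0.337% lower. Of 109 tested genes in 4 lists of mitosis (entry kinases and cyclins, the anaphase-promoting complex, the kinetochore, and the spindle), 22 were called higher and 2 lower. Without replicate 2 of the combination 27 were called higher, among them all 22, and 4 lower. The median log2 fold change of the 109 genes was 0.05 both ways, against −0.00245 over all tested genes, so most members moved little. In RNA from whole cultures, a larger share of cells near mitosis and more of these transcripts per cell cannot be told apart. HMMR, which encodes a hyaluronan receptor that binds the mitotic spindle (chromosome 5, 163460203 to 163491945 of hg38), was at 73.6, 70.3 and 77.8 CPM with GSK343 and at 109, 103 and 110 CPM with the combination. Replicate 2 lay close to the other 2 combination libraries. HMMR rose by 0.53 ± 0.045 on the log2 scale (SE, 1.45-fold, edgeR adjusted p = 0.000345) and by 0.56 without replicate 2 (1.21e-05).

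The promoters of 4 of these genes are shown because late cell cycle genes are known to share short elements there: the cell cycle genes homology region, searched as TTTGAA, and the CCAAT box, both on either strand. The sequences are the 150 bases before the gene start in RefSeq on GRCh38.p14, and capitals mark matches, which in HMMR overlap in one place. RefSeq starts can differ from the GENCODE positions given for the genes. The windows of HMMR and PRC1 lie inside those GENCODE positions, and that of CCNB2 lies partly inside.
HMMR (chr5:163460482-163460631, plus strand): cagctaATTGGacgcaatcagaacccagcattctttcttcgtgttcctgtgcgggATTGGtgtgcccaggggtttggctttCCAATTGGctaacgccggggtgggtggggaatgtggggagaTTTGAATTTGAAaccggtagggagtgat
CCNB2 (chr15:59104996-59105145, plus strand): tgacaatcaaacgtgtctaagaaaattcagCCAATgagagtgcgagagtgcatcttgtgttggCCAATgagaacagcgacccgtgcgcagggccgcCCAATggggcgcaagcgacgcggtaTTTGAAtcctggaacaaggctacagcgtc
CDC20 (chr1:43358831-43358980, plus strand): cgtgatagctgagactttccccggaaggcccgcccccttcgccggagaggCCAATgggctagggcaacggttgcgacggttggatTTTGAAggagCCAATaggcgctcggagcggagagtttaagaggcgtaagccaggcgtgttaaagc
PRC1 (chr15:90994536-90994685, minus strand): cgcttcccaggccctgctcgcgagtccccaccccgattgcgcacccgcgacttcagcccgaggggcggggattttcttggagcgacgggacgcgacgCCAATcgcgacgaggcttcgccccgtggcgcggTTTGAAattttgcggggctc
TTTGAA lay 22 and 28 bases before the RefSeq start of HMMR, 29 before that of CCNB2, 65 before that of CDC20 and 20 before that of PRC1. Of the 22 mitosis genes called higher, 17 had a window in the RefSeq table, and 7 of those (41.2%) held TTTGAA and 12 (70.6%) CCAAT. The 4 genes shown are all among those 7, so they do not stand for the 17. Among the 92 tested mitosis genes with a window, called or not, the shares were 31.5% and 56.5%. Over all 27305 windows of the table they were 7.44% and 24.4%, and over the windows of 11261 tested genes 4.19% and 27.3%. For all genes called higher with and without replicate 2 (67 windows) they were 10.4% and 38.8%. For those called lower both ways (31 windows) they were 9.68% and 29%, so TTTGAA was about as frequent in either direction. A match describes the letters only.

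Among the entry kinases and cyclins, 5 of 23 tested genes rose and 0 fell, and 6 rose without replicate 2 (median log2 fold change 0.12 and 0.13). CDK1, whose kinase activity brings cells into mitosis (chromosome 10, 60778331 to 60794852), was at 108, 99.8 and 102 CPM with GSK343 and at 136, 148 and 145 CPM with the combination. It rose by 0.47 ± 0.046 (1.38-fold, adjusted p = 0.000939), and by 0.44 without replicate 2 (0.000118). CCNB2, a B-type cyclin that activates CDK1 (chromosome 15, 59105078 to 59125045), was at 91.0, 93.2 and 88.5 CPM against 107, 118 and 111 CPM. Its rise was 0.30 ± 0.044 (adjusted p = 0.00725; 0.27 and 0.00225 without replicate 2), a call lost without GSK343 replicate 3 (0.0527). AURKA, the centrosomal kinase Aurora A, showed the least scatter of the group, at 199, 197 and 196 CPM against 238, 234 and 235 CPM. It rose by 0.25 ± 0.030 (adjusted p = 0.00201; 0.26 and 0.000134 without replicate 2). PTTG1, the securin that holds back the enzyme that parts the sister chromatids, was at 140, 142 and 127 CPM against 165, 197 and 165 CPM, a rise of 0.37 ± 0.069 (0.28 without replicate 2) whose call was kept in 5 of the 12 fits that left out 1 library. The calls of CDK1 and AURKA were kept in all 12 of those fits. The remaining called member, CCNB1, chosen after its value was seen, is the other main B-type cyclin and rose by 0.19 ± 0.037, and by 0.17 without replicate 2.

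Of the anaphase-promoting complex, 3 of 20 tested genes rose both with and without replicate 2, and these 3 are cofactors rather than core subunits. UBE2C, the E2 enzyme that starts ubiquitin chains for the complex (chromosome 20, 45812576 to 45816957), was at 142, 139 and 130 CPM with GSK343 and at 193, 226 and 190 CPM with the combination. UBE2S, the E2 enzyme that extends those chains, was at 421, 410 and 330 CPM against 622, 721 and 557 CPM. CDC20, the activator of the complex, was at 345, 349 and 338 CPM against 389, 427 and 394 CPM. For each of the 3 genes replicate 2 was the highest library. UBE2C rose by 0.57 ± 0.064 (1.49-fold, adjusted p = 0.00186) and by 0.49 without replicate 2 (0.000118). UBE2S rose by 0.71 ± 0.121 (adjusted p = 0.0156) and by 0.61 (0.012), and CDC20 by 0.23 ± 0.038 (0.0137) and by 0.19 (0.0027). Only the UBE2C call was kept in all 12 fits that left out 1 library. Those of UBE2S and CDC20 were lost without GSK343 replicate 2 or 3, and that of UBE2S also without combination replicate 1 (adjusted p up to 0.103 for both).

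Kinetochore and checkpoint genes gave 7 rises and 1 fall among 37 tested, and 10 rises and 2 falls without replicate 2 (median 0.10 and 0.05). CENPH, an inner kinetochore subunit (chromosome 5, 69189548 to 69210357), was at 48.4, 47.3 and 46.9 CPM against 61.7, 71.0 and 63.8 CPM. It rose by 0.46 ± 0.053 (adjusted p = 0.00186; 0.40 and 0.000134 without replicate 2). CENPA, the histone H3 variant that marks the centromere, was at 25.2, 21.4 and 19.7 CPM against 30.3, 33.3 and 29.6 CPM. It rose by 0.49 ± 0.090 (adjusted p = 0.0254; 0.44 and 0.0221), a call that did not hold without combination replicate 1, GSK343 replicates 2 or 3 or DMSO replicate 2 (up to 0.14). ZWILCH, a part of the complex that brings dynein to the kinetochore, was at 61.6, 57.3 and 58.8 CPM against 70.1, 68.3 and 68.5 CPM, a rise of 0.22 ± 0.041 (0.23 without replicate 2) kept in 3 of 12 fits. BUB1, a checkpoint kinase, was called by edgeR without replicate 2 and not with all libraries (0.22, adjusted p = 0.00317; 0.15 and 0.189 with it), with replicate 2 at 87.3 CPM beside 88.2, 88.0 and 90.1 with GSK343 and 103 and 104 in the other combination libraries. The member that fell, CENPE, is described with the long transcripts below.

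Of 29 spindle and cytokinesis genes, 7 rose and 1 fell, and 8 rose and 2 fell without replicate 2. The median turned from −0.02 to 0.04 when replicate 2 was left out, and the list's median transcript length was 4040 nt. Besides HMMR, KPNA2, a nuclear importin that holds spindle assembly factors, was at 510, 503 and 498 CPM against 587, 593 and 592 CPM. The 3 combination libraries of KPNA2 were close together, and it rose by 0.23 ± 0.030 (adjusted p = 0.00384; 0.23 and 0.000624 without replicate 2), kept in all 12 fits that left out 1 library. PRC1, the bundler of the central spindle (chromosome 15, 90966038 to 90995629), was at 273, 271 and 272 CPM against 318, 298 and 324 CPM, and rose by 0.20 ± 0.039 (adjusted p = 0.0297; 0.24 and 0.00088). KIF2C, a kinesin that depolymerises microtubules, rose by 0.19 ± 0.034 (0.18 without replicate 2) and FAM83D, a spindle protein, by 0.20 ± 0.037 (0.19). The calls of PRC1, KIF2C and FAM83D were kept in 2, 1 and 4 of the 12 fits. KIF4A, a chromosome-bound kinesin, was called by edgeR without replicate 2 (0.29, adjusted p = 0.000346) and not with it (0.22 and 0.074), while DESeq2 called it with all libraries (0.02). The member called lower was KIF20B, a mitotic kinesin named after its value was known, which fell by 0.41 ± 0.083, and by 0.31 without replicate 2.

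The standard proliferation markers did not move in 1 direction. MKI67, the gene of the Ki-67 antigen (chromosome 10, 128096659 to 128126385), was at 481, 492 and 539 CPM with GSK343 and lower in all combination libraries, at 379, 200 and 392 CPM. Its log2 fold change was −0.64 ± 0.172 with all libraries, which edgeR did not call (adjusted p = 0.0861), and without replicate 2 it fell by 0.39 ± 0.046 (adjusted p = 0.00039). TOP2A, the topoisomerase that untangles sister chromatids, was at 522, 511 and 558 CPM against 659, 538 and 682 CPM. By edgeR TOP2A was called higher without replicate 2, at 0.34 ± 0.038 (adjusted p = 0.00021), and not with all libraries (0.24 and 0.107). DESeq2 called both MKI67 and TOP2A with all libraries (adjusted p = 0.0365 and 0.0398). Replicate 2 was the lowest combination library for both genes, whose transcripts are 12678 nt and 5758 nt long. Of the 11 tested genes of this list, which also holds the condensins, 0 were called by edgeR with all libraries (3 at an unadjusted p under 0.05, 2 by DESeq2), and 2 higher and 1 lower without replicate 2.

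Replication genes rose in part. Of 30 tested genes of origin licensing and firing, 2 rose and 0 fell, and 4 rose without replicate 2 (median 0.07 and 0.06). MCM3, a helicase subunit (chromosome 6, 52264009 to 52284881), was at 166, 172 and 166 CPM with GSK343 and at 204, 190 and 205 CPM with the combination, with no overlap. It rose by 0.25 ± 0.038 (adjusted p = 0.00805) and by 0.29 without replicate 2 (0.000134), a call lost without GSK343 replicate 3 or combination replicate 1 (up to 0.0631). MCM7, another subunit, rose by 0.15 ± 0.030 (adjusted p = 0.0424; 0.14 and 0.0212 without replicate 2), kept in 1 of 12 fits. By edgeR MCM2 and MCM4 were called without replicate 2, at 0.13 and 0.14, and not with all libraries, where DESeq2 called MCM4 (0.00424). At the fork, 2 of 34 genes rose, RFC3 of the clamp loader by 0.20 ± 0.039 (0.20 without replicate 2) and RPA3 of the single-strand binding protein by 0.35 ± 0.075 (0.25), and without replicate 2 TK1, an enzyme of nucleotide supply, was also called, at 0.17. RFC3 and RPA3 were kept in 2 and 3 of the 12 fits. DESeq2 called 9 of the 34 with all libraries, TK1 among them (adjusted p = 0.00596). Of 32 genes of the G1/S step, 0 were called by edgeR with all libraries (9 at an unadjusted p under 0.05, 3 by DESeq2), and CCNE2, a cyclin E gene, and SKP2, a subunit of a ubiquitin ligase, were each lower by 0.22 without replicate 2 (adjusted p = 0.0337 and 0.0388).

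The targets of the compounds did not change in a way this test called. CDC7 was at 26.7, 25.2 and 25.1 CPM with GSK343 and at 25.0, 23.6 and 25.4 CPM with the combination (log2 fold change −0.06 ± 0.055, adjusted p = 0.589; −0.02 without replicate 2). DBF4 stood at 0.08 ± 0.044 (0.07 without replicate 2), DBF4B, its paralog, at −0.15 ± 0.077 (−0.06) and EZH2 at −0.02 ± 0.041 (−0.03), with EZH2 at 90.2, 86.3 and 88.9 against 88.1, 88.4 and 85.7 CPM. EZH1, the paralog of EZH2, was lower in all 3 combination libraries (25.5, 24.1 and 24.8 against 21.5, 21.0 and 22.4 CPM), a difference of −0.20 ± 0.054 that was not called (adjusted p = 0.089; −0.18 and 0.144 without replicate 2). EED and SUZ12, the other core subunits of the complex, were at 0.03 ± 0.058 and 0.02 ± 0.053 (−0.02 and −0.03 without replicate 2). Of 36 tested HOX genes and 64 other developmental regulators that Polycomb is known to silence, 0 were called by edgeR in either fit (15 and 9 at an unadjusted p under 0.05, 2 by DESeq2). Over all tested genes edgeR called 0.984%, so 0 calls among these 100 is not far from the general share.

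With all libraries, the largest rise of a called gene was in a histone gene. HIST1H2AC, a histone H2A gene (chromosome 6, 26124145 to 26139116), was at 6.77, 6.82 and 5.56 CPM with GSK343 and at 10.9, 12.2 and 11.3 CPM with the combination. It rose by 0.85 ± 0.094 (1.81-fold, adjusted p = 0.00186) and by 0.81 without replicate 2 (0.000672). HIST1H2BK, a histone H2B gene, was at 19.6, 20.6 and 16.3 CPM against 29.1, 35.5 and 28.7 CPM, and rose by 0.73 ± 0.094 (adjusted p = 0.00333; 0.62 and 0.000777). Both calls were kept in all 12 fits that left out 1 library. Of 60 listed clustered histone genes 34 were tested, 4 rose and 0 fell, and 3 rose without replicate 2. HIST3H2A rose by 0.61 ± 0.105 (0.49 without replicate 2), lost without GSK343 replicate 2 or 3 or combination replicate 1. The call of HIST1H2BD (0.55 ± 0.119, adjusted p = 0.0481) was kept in 1 of 12 fits and lost without replicate 2 (0.0765). The median of the 34 was 0.21, and 0.18 without replicate 2. Most mRNA of these genes lacks a poly-A tail and the genes are close paralogs, so the values cover the polyadenylated part, as divided by estimate between copies.

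Chemokine genes rose in 3 of 23 tested members of a list of chemokines and cytokines, with or without replicate 2, and 0 fell. CCL2, which attracts monocytes (chromosome 17, 34255218 to 34257203), was at 12.5, 12.02 and 11.3 CPM with GSK343 and at 17.1, 20.6 and 17.4 CPM with the combination, a rise of 0.63 ± 0.085 (adjusted p = 0.00404; 0.54 and 0.00225 without replicate 2) that was kept in all 12 fits. CXCL1, a neutrophil attractant (chromosome 4, 73869393 to 73871242), was at 74.6, 72.7 and 72.5 CPM against 85.9, 97.7 and 88.6 CPM. It rose by 0.31 ± 0.048 (adjusted p = 0.00993; 0.25 and 0.00235 without replicate 2), lost without GSK343 replicate 2 or 3. CXCL8, or interleukin 8, was at 86.4, 85.4 and 88.9 CPM against 101, 113 and 98.1 CPM, a rise of 0.26 ± 0.053 (0.20 without replicate 2) kept in 2 of 12 fits. The list's median was 0.04, and 0.01 without replicate 2, so the rise was not shared by most members. Of the 21 tested NF-kB subunits and feedback targets, 0 were called by edgeR in either fit (5 and 5 at an unadjusted p under 0.05, 0 by DESeq2). The promoter of CXCL1 is shown because chemokine genes are known NF-kB targets, with capitals at the match to GGG and TTTCC with any 2 bases between them, on either strand, which 1.11% of all RefSeq windows of this length held. The share was 1.26% for tested genes. Among genes called with and without replicate 2, 3 of 67 windows of those higher and 0 of 31 of those lower held it.
CXCL1 (chr4:73869243-73869392, plus strand): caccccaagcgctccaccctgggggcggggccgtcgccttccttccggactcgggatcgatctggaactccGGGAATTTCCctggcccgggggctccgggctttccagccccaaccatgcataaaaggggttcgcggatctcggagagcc
Of 23 tested metalloproteinase and plasminogen activation genes, MMP1 and MMP2 rose and 0 fell, both ways. MMP1, the interstitial collagenase, was at 14.8, 17.2 and 15.6 CPM against 22.2, 22.2 and 23.0 CPM, a rise of 0.50 ± 0.064 (adjusted p = 0.00333; 0.51 and 0.00173) that was kept in all 12 fits. MMP2, a gelatinase, rose by 0.19 ± 0.040 (0.19 without replicate 2), kept in 2 of them.

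Several of the largest falls were in long transcripts that encode coiled-coil proteins of the centrosome, kinetochore and Golgi. AKAP9, a scaffold of the centrosome and Golgi (chromosome 7, 91940867 to 92110673, transcript 12471 nt), was at 59.4, 63.4 and 70.0 CPM with GSK343 and at 38.8, 25.0 and 41.2 CPM with the combination. CENPE, the kinesin that moves chromosomes to the spindle equator (chromosome 4, 103105806 to 103198409, 8612 nt), was at 61.7, 61.1 and 72.2 CPM against 43.1, 28.7 and 39.1 CPM. CEP290, a protein of the ciliary transition zone (chromosome 12, 88049014 to 88142216, 7948 nt), was at 34.4, 33.6 and 38.8 CPM against 24.2, 19.2 and 23.8 CPM. For each of the 3 genes replicate 2 was the lowest combination library and GSK343 replicate 3 the highest GSK343 library. AKAP9 fell by 0.88 ± 0.136 (adjusted p = 0.00914) and by 0.68 without replicate 2 (0.000118), a call lost without GSK343 replicate 3 (0.0544). CENPE fell by 0.82 ± 0.112 (adjusted p = 0.00465) and by 0.66 (0.000134), and CEP290 by 0.67 ± 0.079 (0.00201) and by 0.57 (0.000134), both kept in all 12 fits that left out 1 library. With a term for transcript length and GC content in each library, they fell by 0.74, 0.72 and 0.58 in the same order.

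Golgins, long coiled-coil proteins that tether vesicles to the Golgi, gave 3 falls and 0 rises among 13 tested genes, and 4 falls without replicate 2. The median was −0.11, and −0.05 without replicate 2, at a median transcript length of 7537 nt. GOLGA4, a golgin of the trans-Golgi (chromosome 3, 37243177 to 37366751), was at 128, 127 and 145 CPM with GSK343 and at 90.6, 74.3 and 92.4 CPM with the combination, and fell by 0.64 ± 0.075 (adjusted p = 0.00201; 0.54 and 0.000118). TRIP11, a golgin of the cis-Golgi, was at 36.1, 34.0 and 38.5 CPM against 27.0, 23.1 and 26.3 CPM, a fall of 0.51 ± 0.070 (adjusted p = 0.00468; 0.44 and 0.00225). Both calls were kept in all 12 fits. GCC2, another golgin of the trans-Golgi, fell by 0.45 ± 0.078 (0.38 without replicate 2), lost without GSK343 replicate 1 or 3, and GOLGB1, the giant golgin, was at −0.58 with all libraries, which edgeR did not call (adjusted p = 0.0802) and DESeq2 did (0.0491). GOLGB1 fell by 0.35 without replicate 2 (0.00316), and was also called by edgeR without combination replicate 3. Not all centrosome genes fell: of 38 tested, AKAP9 and CEP290 were called lower with all libraries, and without replicate 2 CEP57 and CEP164 were called higher, at 0.21 and 0.19. Their median turned from −0.09 to 0.02 without replicate 2.

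Length was a common feature of the genes called lower. Their median transcript was 4732 nt, against 3312 nt over the tested genes and 2248 nt for the genes called higher, and 27.5% were 7000 nt or longer, against 11.9% of the tested genes. Without replicate 2 of the combination the genes called lower still had a median of 4310 nt and 29.4% at 7000 nt or more, while the genes called higher reached 2804 nt. Short transcripts showed the opposite lean. The cytosolic ribosomal proteins, with a median transcript of 1170 nt, lay above 0 in 79 of 79 genes with a median of 0.17, and in 76 with a median of 0.08 without replicate 2. Nuclear-encoded respiratory chain genes lay above 0 in 74 of 75, with a median of 0.16 and 0.08. By edgeR 0 genes of either list were called, with or without replicate 2, although 54 and 39 had an unadjusted p under 0.05 (24 and 17 without replicate 2), and DESeq2 called 6 and 3. With a length and GC term the medians were 0.08 and 0.06.

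CA9, a hypoxia-induced carbonic anhydrase (chromosome 9, 35673856 to 35681159), showed the largest change of all called genes and was low throughout. It was at 3.33, 2.99 and 3.48 CPM with GSK343 and at 1.46, 1.37 and 1.06 CPM with the combination. Replicate 2 did not stand apart here, and CA9 fell by 1.33 ± 0.191 (adjusted p = 0.00623), and without replicate 2 it fell by 1.38 (0.0059), kept in all 12 fits. In the DMSO libraries it was at 1.42, 2.02 and 1.11 CPM and in the XL413 libraries at 1.78, 2.05 and 1.80 CPM, so the GSK343 libraries were the high ones. The other 23 tested hypoxia-responsive genes were not called by edgeR in either fit, and the list's median was −0.04, and −0.07 without replicate 2. Of all 24, 6 had an unadjusted p under 0.05 (4 without replicate 2). DESeq2, which gave CA9 no adjusted p in this comparison, called 2 others. With CA9 counted, 7 of the 24 were lower in all 3 combination libraries than in all 3 GSK343 libraries, and 1 was higher. Their summed level was 1013 to 1036 CPM with GSK343 and 941 to 986 CPM with the combination. The promoter is shown because the factor of the hypoxia response binds a short core close to the CA9 start. The core was searched as ACGTG on either strand, is in capitals, and was held by 12.8% of all windows. The share was 16% for tested genes, and 20.9% and 25.8% for genes called higher and lower with and without replicate 2. The window is set by the RefSeq start and lies partly inside the GENCODE position given above.
CA9 (chr9:35673778-35673927, plus strand): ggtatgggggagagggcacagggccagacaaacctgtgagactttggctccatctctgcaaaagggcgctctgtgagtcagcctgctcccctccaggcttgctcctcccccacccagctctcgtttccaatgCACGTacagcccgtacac

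**Figure D3:**
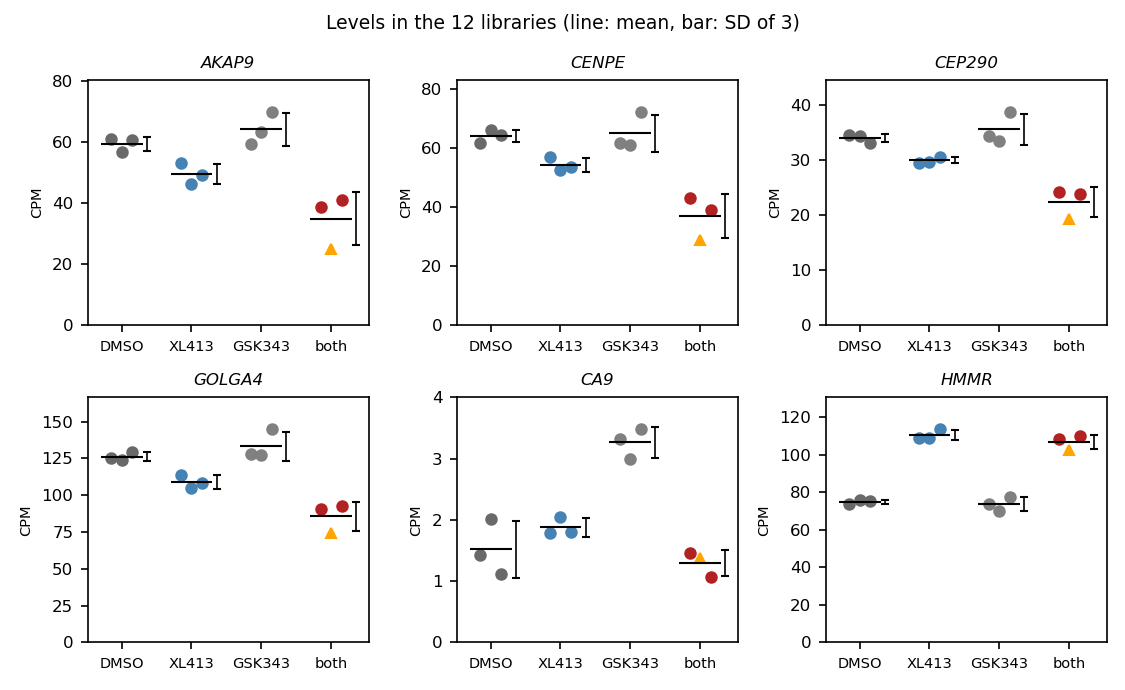
CPM (vertical axis) of AKAP9, CENPE, CEP290, GOLGA4, CA9 and HMMR in all 12 libraries by group, with the mean as a line and the SD of 3 libraries as a bar; "both" is the combination and the triangle its replicate 2. The long transcripts are lowest in the combination, CA9 is high in the 3 GSK343 libraries alone, and HMMR is high in both groups with XL413.

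AXL, a receptor kinase that is high in melanoma cells without melanocyte features (chromosome 19, 41219203 to 41261766), was at 400, 431 and 460 CPM with GSK343 and at 344, 338 and 344 CPM with the combination. The 3 combination libraries of AXL were close together, and it fell by 0.33 ± 0.049 (adjusted p = 0.00732; 0.32 and 0.00317 without replicate 2), kept in all 12 fits. Few other genes of that undifferentiated state were called: of 29 tested, AXL fell and TPM1, a tropomyosin, rose (0.17 ± 0.035, 0.16 without replicate 2, kept in 3 of 12 fits), and without replicate 2 TGFBI, a matrix protein, was also called higher (0.19) and AJUBA, a LIM protein of cell junctions, lower. DESeq2 called 5 of these 29 with all libraries. Of 30 YAP/TEAD targets AXL was the 1 gene called by edgeR, and without replicate 2 AMOTL2 and AJUBA were called lower as well. With all libraries DESeq2 called 3 of the 30, AMOTL2 and AJUBA among them (adjusted p = 0.0109 and 0.024). FST, the activin antagonist follistatin, was at 99.9, 97.6 and 101 CPM against 82.9, 89.0 and 82.3 CPM, and fell by 0.23 ± 0.042 (adjusted p = 0.0216; 0.27 and 0.00109 without replicate 2), lost without GSK343 replicate 1, 2 or 3 or combination replicate 1. With all libraries SLC6A9, a glycine transporter, was the 1 gene that edgeR called of 34 ATF4 targets, where DESeq2 called 4. SLC6A9 fell by 0.42 ± 0.078 (0.47 without replicate 2), lost without XL413 replicate 3, GSK343 replicate 2 or 3 or combination replicate 1.

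Outside the lists, BCYRN1, a short noncoding RNA of neurons and tumour cells (chromosome 2, 47335315 to 47335514), was at 74.0, 87.8 and 70.6 CPM with GSK343 and at 46.0, 42.6 and 50.2 CPM with the combination. At 200 nt it was no long transcript, and it fell by 0.74 ± 0.097 (adjusted p = 0.00374; 0.69 and 0.00207 without replicate 2). It resembles Alu repeats, so its count depends on how reads from several places were divided. ANKRD12, an ankyrin repeat protein that binds nuclear receptor coactivators, fell by 0.66 ± 0.095 (0.55 without replicate 2), from 22.9, 23.6 and 26.2 to 16.2, 12.9 and 17.0 CPM. RTEL1, a helicase that protects telomeres, fell by 0.57 ± 0.085 (0.55), from 28.8, 23.8 and 28.3 to 17.7, 17.6 and 19.2 CPM. The calls of BCYRN1, ANKRD12 and RTEL1 were kept in all 12 fits. PDE3A, a cyclic nucleotide phosphodiesterase, fell by 0.69 ± 0.121 (0.58), lost without GSK343 replicate 3 or combination replicate 1. ATOH8, a helix-loop-helix transcription factor, was at 3.81, 4.06 and 3.72 CPM against 5.36, 6.41 and 6.30 CPM and rose by 0.64 ± 0.108 (adjusted p = 0.0148; 0.60 and 0.0222), lost without GSK343 replicate 2 or 3. The calls of GAGE12D, a cancer-testis antigen with near-identical copies, FAM196B and ZNF121 were lost without replicate 2 (adjusted p = 0.0601, 0.0808 and 0.0562). Without replicate 2, the rise of CD24, a small surface glycoprotein, was the largest named, at 0.81 ± 0.191 beside 0.81 for HIST1H2AC. CD24 was low, at 2.03, 1.70 and 1.70 CPM with GSK343 against 3.07, 2.67 and 3.27 CPM, and edgeR did not call it with all libraries (0.73, adjusted p = 0.0662). By edgeR LRP1B, a giant receptor of the LDL receptor family (16535 nt), TENM1, a teneurin (12891 nt), and PCDHA12, a protocadherin, were also called higher without replicate 2, at 0.73, 0.67 and 0.61, and not with all libraries (0.48, 0.42 and 0.42). CALB1, a calcium-binding protein, was called lower without it, at −0.52 (−0.42 with all libraries, adjusted p = 0.0722).

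DNA repair genes moved both ways: of 34 tested genes of homologous recombination, the Fanconi pathway and the checkpoint, 3 rose and 1 fell, and 1 rose and 1 fell without replicate 2. The checkpoint kinase CHEK2 rose by 0.32 ± 0.068 and ATRIP, the partner of ATR, by 0.28 ± 0.059, and both calls were lost without replicate 2 (0.28 and 0.21, adjusted p = 0.0667 and 0.0502). FANCA, a Fanconi core subunit, fell by 0.23 ± 0.048 and kept its call without replicate 2 (−0.19, 0.0393). The calls of CHEK2, ATRIP and FANCA were kept in 2, 1 and 2 of the 12 fits. Single rises were GLA, the lysosomal galactosidase, among 39 lysosome and autophagy genes (0.23 ± 0.048, 0.21 without replicate 2) and PSME2, a subunit of a proteasome activator, among 36 proteasome genes (0.27 ± 0.056, 0.21 without), kept in 3 and 2 of 12 fits. By edgeR 0 members were called in either fit among 28 p53 targets, 15 BCL-2 family genes, 41 interferon-stimulated genes, 26 antigen presentation genes, 31 cholesterol genes, 16 fatty acid synthesis genes, 22 endoplasmic reticulum and 25 heat shock chaperones, 29 MAPK output genes and 23 melanocyte differentiation genes. Of these 256 genes 62 had an unadjusted p under 0.05 (48 without replicate 2), and DESeq2 called 9. Over all 15443 tested genes 20.4% had such a p, edgeR called 0.984% and DESeq2 called 582. Lists of this size with 0 calls by edgeR are thus not set apart from the other genes. CDKN1A, the p53-induced inhibitor of cyclin-dependent kinases, was at 180, 177 and 172 CPM against 183, 194 and 180 CPM (log2 fold change 0.07 ± 0.043, and 0.04 without replicate 2). Without replicate 2 single falls of DDIT4, an inhibitor of mTOR signalling, HK2, a hexokinase, HMOX1, the heme oxygenase, and TGFBR1, a TGF-beta receptor, were called, as were rises of the collagen genes COL5A1 and COL27A1. With all libraries DESeq2 called HK2 (adjusted p = 0.0109) and not the others.

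**Figure D4:**
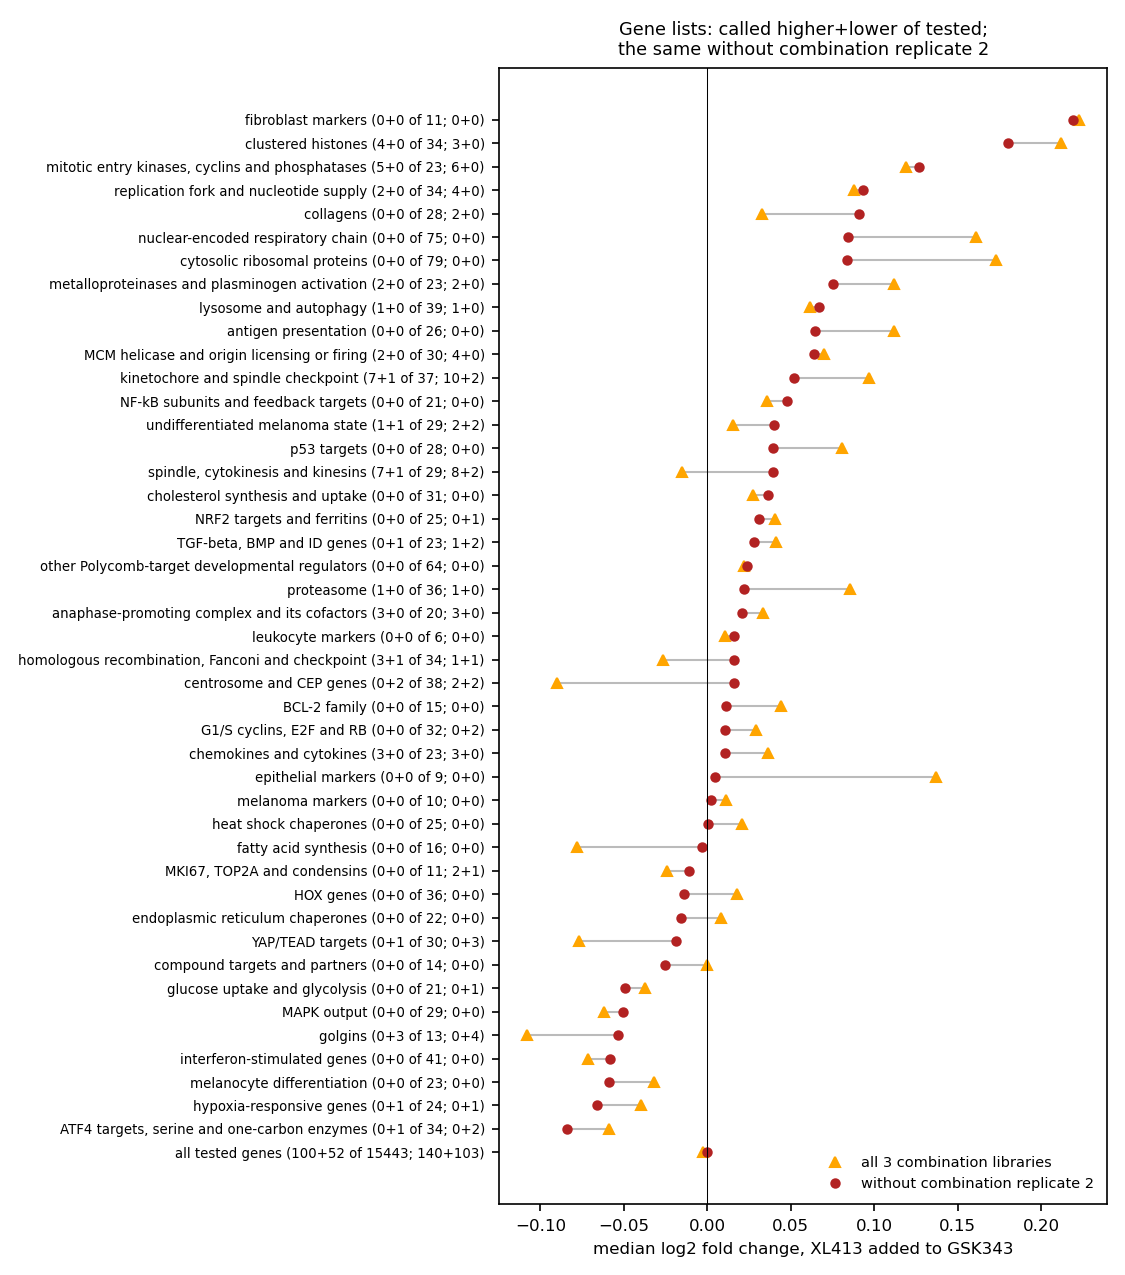
Median log2 fold change (horizontal axis) of the tested members of each gene list when XL413 was added to GSK343, with all combination libraries (triangles) and without replicate 2 (circles). Numbers in brackets are genes called higher and lower of those tested, then the same without replicate 2; the lists with the most long transcripts, such as centrosome genes and golgins, move to the right without replicate 2, and ribosomal proteins and respiratory chain genes move to the left.

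The same compound was given without GSK343 in the other 6 libraries, which share no sample with the comparison above. They do share the estimate of spread by which the 152 genes were called, so genes with little scatter in these libraries were favoured. Separation on DMSO is therefore not independent of the calls. There 66 genes were called (0.427%), and 756 (4.85%) without replicate 2 of the combination, which enters that contrast only through the shared spread. Of the 152 genes called on GSK343, 150 had the same sign on DMSO (98.7%), against 69.9% of all tested genes. All 3 XL413 libraries lay beyond all 3 DMSO libraries in the same direction for 140 of the 152 (92.1%), against 23.9% of all tested genes, and 44 of the 152 were called on DMSO too. Of the 22 mitosis genes called higher, 21 were separated upward on DMSO and 9 were called there. Across 12393 genes with a mean of at least 1 log2 CPM, the 2 log2 fold changes had a Pearson r of 0.587, and 0.576 without replicate 2. Genes are not independent replicates, the 2 contrasts share a lean with transcript length, and with the length and GC term r was 0.556. The 2 exceptions in sign were CA9 and HHEX, a homeobox gene chosen after its value was seen, at 0.29 on GSK343 (0.26 without replicate 2) and −0.03 on DMSO.

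**Figure D5:**
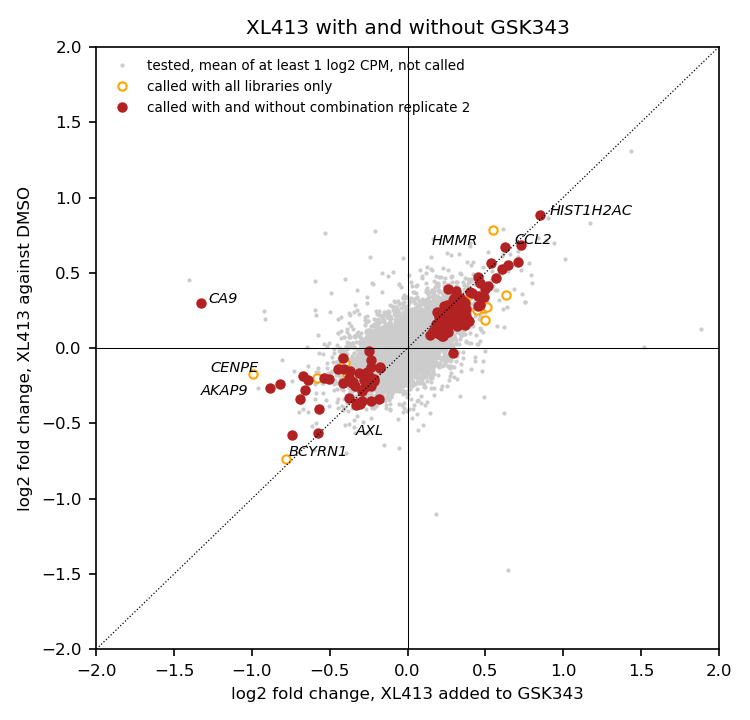
Log2 fold change of XL413 added to GSK343 (horizontal axis) against that of XL413 on DMSO (vertical axis), for tested genes with a mean of at least 1 log2 CPM; filled points are called with and without replicate 2 of the combination, open circles with all libraries only, and the dotted line marks equal change. Of the 152 called genes 150 have the same sign on both axes, CA9 is the 1 called gene at the upper left, and AKAP9 and CENPE lie farther from 0 on the horizontal than on the vertical axis.

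Whether XL413 acted differently with GSK343 present was tested as an interaction, the log2 fold change on GSK343 minus that on DMSO. By edgeR 0 genes were called, with 413 at an unadjusted p under 0.05 (2.67% of those tested), and 0 again without replicate 2, with 438 (2.81%). DESeq2 called 2 genes, CA9 and BAGE5, a cancer-testis gene whose estimate rests on libraries at 0. For HMMR the difference was −0.03 ± 0.064, for UBE2C 0.11 ± 0.091 and for CXCL8 −0.13 ± 0.075, all uncalled, and −0.01, 0.02 and −0.20 without replicate 2. The largest named difference was that of CA9, −1.63 ± 0.277, with an unadjusted p of 4.96e-05 and an adjusted p of 0.766 by edgeR (DESeq2 adjusted p = 0.00351), and it was −1.69 without replicate 2 (adjusted p = 0.826). CA9 was at 0.30 on DMSO, where the levels with and without XL413 overlapped, and at −1.33 on GSK343. A rise on DMSO, and so a turn of the sign, was not shown. For 4 long transcripts the log2 fold changes on DMSO and on GSK343 were both below 0: AKAP9 was at −0.26 and −0.88, CENPE at −0.24 and −0.82, CEP290 at −0.18 and −0.67 and GOLGA4 at −0.21 and −0.64. Their differences of −0.62, −0.58, −0.49 and −0.43 were not called (adjusted p = 0.989 each), and without replicate 2 they were −0.43, −0.43, −0.39 and −0.34 (adjusted p = 0.841 each). With the length and GC term and without replicate 2 together, a fit added after the data were seen, these 4 genes and no others were called, at −0.41, −0.41, −0.38 and −0.33 (adjusted p = 0.0344, 0.0344, 0.0452 and 0.0118). The 4 genes set out here are thus the ones that this fit called, and do not stand for long transcripts. Other long transcripts varied. On DMSO, and on GSK343 without replicate 2, ANKRD12 was at −0.28 and −0.55, MKI67 at −0.43 and −0.39 and TENM1 at 0.57 and 0.67.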

How the data were processed

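Poly-A RNA of A375 cells was measured in 12 libraries, 3 in each of 4 groups. The comparison is between the 6 libraries with GSK343, and the other 6 share its model and give XL413 on DMSO and the interaction. The authors deposited 1 table of expected counts from RSEM, which are estimated reads per gene that are not scaled between libraries. In each library 10.5 to 11.1% of values had a decimal part. Per the submitters' processing notes the tools were Bowtie2 2.1.0 and RSEM 1.2.15 and the build hg38. Per the labels' protocols the libraries were strand-specific. Which annotation, strand setting and read filters the counting used is not stated there. Reads shared by paralogs or overlapping genes are split by estimate in RSEM.

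Expected counts were rounded and fitted in R 4.3.3 with edgeR 4.0.16: low genes were removed by filterByExpr (minimum count 10, minimum total 15), which kept 15443 of 26475, scaling was by TMM, and all 12 libraries shared 1 quasi-likelihood model with a mean for every group and 8 residual degrees of freedom. Tests were two-sided. Benjamini-Hochberg adjusted p-values cover every gene tested, and "called" means under 0.05. The SE follows from the log2 fold change and its F statistic. CPM uses effective library sizes. The same model without replicate 2 of the combination tested 15584 genes. Positions, lengths and GC content came from GENCODE 29 by gene name (23872 names matched directly, 727 through an older symbol, 1874 unmatched), and promoters from RefSeq. The table has 28 date-like names, none of them discussed.

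The 44 gene lists, the naming rule and the alternatives were chosen with earlier results of these data known. Named genes are up to 10 rises and 10 falls of largest size in each fit (called, a mean of at least 1 log2 CPM, groups not overlapping), the targets and partners, and up to 4 called members of each list per fit, or its 2 most abundant members where none was called. Alternatives were other scalings and filters, DESeq2 1.42.0, limma 3.58.1 (voom, with and without sample weights), a fit of the compared groups alone, a replicate term, a length and GC offset, and leaving out each library in turn. No library pair of a group agreed within sampling noise. The scripts were tested on simulated data. Called genes that are not named enter through the counts alone.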

Additional observations from a re-analysis of the deposited data

How the results depend on the processing

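The 152 calls for XL413 on GSK343 were 151 with RLE scaling, 148 with upper quartile scaling, 164 without a filter, 215 at a stricter one and 164 with voom. They became 582 with DESeq2, 487 with voom and sample weights, 606 with the length and GC offset, 692 with that offset without combination replicate 2, 0 with only the groups compared and 51 with only those groups without that replicate. Leaving out 1 library gave 35 to 348. The 66 calls on DMSO became 245 with DESeq2, 1266 with weights, 1394 with only the groups compared, 574 with the offset and 1494 with the offset without that replicate, and leaving out 1 library gave 16 to 756. The interaction gave 2 calls with DESeq2 and 4 with the offset without that replicate. On DMSO, 65.2% of the calls were higher, 75.4% with upper quartile scaling, but 50.6% with DESeq2, 48.8% with only the groups compared, 46.7% without combination replicate 2, 43.7% with weights and 38.3% with the offset. On GSK343 the share was 65.8%, and 45.7% to 62.9% over single omissions. The rho with length was −0.149 with weights, −0.155 in the 5 libraries compared and −0.449 to −0.149 over single omissions. It turned to 0.0233 with the offset and 0.0246 without that replicate, as the offset removes length by construction. COL27A1, not called with all libraries (0.061), turned to −0.011 and −0.028 without combination replicate 1 or 3, and was 0.191 without replicate 2.

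Deviations from the group means of same-numbered GSK343 and combination libraries correlated at −0.18, 0.0656 and 0.327. For pairs of unlike number the correlations ran from −0.265 to 0.238. Such deviations cancel within a group and carry the lean with transcript length, so they cannot decide whether the numbers pair the libraries. With the number as a replicate block, 119 genes were called on GSK343 and 153 without combination replicate 2, and 576 on DMSO without it. Not every library correlated best with its own number. Over 82 named genes and all alternatives, 1531 values kept their direction and side of the threshold, 354 lost a call, 158 gained one and 2 (COL27A1) changed sign.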
